A study of Rattus norvegicus with 12 samples.

Results

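Of the 12 arrays of fetal rat pituitary in this series, 6 carried the transcripts of a sensory ganglion at high level and 6 did not. The sides were chosen by the measured level of Avil, which encodes advillin, an actin-binding protein of peripheral sensory neurons. A level is the log2 processed signal of a probe minus the 75th percentile of that array, so 0 stands for the array's 75th percentile and each unit for a doubling of signal. Arrays with the Avil probe above -1 formed the upper side: male control 2, male TCDD 1, male TCDD 2, female control 2, female TCDD 1 and female TCDD 3. The lower side held male control 1, male control 3, male TCDD 3, female control 1, female control 3 and female TCDD 2. The Avil level alone chose the sides, so the difference between them is given throughout as a description, with no test, and Avil supports nothing.

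The samples were pituitaries of Wistar rat fetuses at gestational day 18, in 4 groups of 3 arrays: control males, males exposed to TCDD, control females and females exposed to TCDD. TCDD is the dioxin that activates the aryl hydrocarbon receptor, and here the exposure was of the mother. The labels name no dose, day of dosing, vehicle or litter, and do not say whether an array held tissue of 1 fetus or of several. Nothing in them ties the 3 arrays of a group to separate litters, so the p-values below measure only the spread between these samples, which may be technical.

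Neurons of the cranial and spinal sensory ganglia carry touch, temperature and pain to the brain, and their identity rests on transcription factors of the Brn3, Islet, Tlx and Runx families. Runx1 acts in those that respond to pain. The trigeminal ganglia, which serve the face, lie beside the pituitary at the base of the skull. The anterior pituitary itself holds endocrine cells that make growth hormone, prolactin, ACTH, thyrotropin and the gonadotropins, under factors such as Pit-1, the product of Pou1f1.

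On the upper side the Avil level was 0.33 on male control 2, 1.62 on male TCDD 1, 1.02 on male TCDD 2, 0.83 on female control 2, 0.80 on female TCDD 1 and 0.17 on female TCDD 3. On the lower side it was -3.49 on male control 1, -3.69 on male control 3, -3.33 on male TCDD 3, -3.55 on female control 1, -3.67 on female control 3 and -3.40 on female TCDD 2. The nearest arrays on either side of the threshold were thus female TCDD 3 at 0.17 and male TCDD 3 at -3.33, a gap of 3.50. No array lay in between. The Avil probe was well above background on all 6 arrays of the lower side too.

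The promoters of Avil and Runx1, the genes that mark the split, and of Prl, a pituitary hormone gene, are shown side by side. These are examples that hold a motif, and other promoters looked at held none. Each is the 250 bases before the start of the gene on its own strand, from RefSeq on GRCr8, and capitals mark the motifs found in it. The windows lie at chr7:64711153-64711402 on the plus strand for Avil, chr11:45421326-45421575 on the minus strand for Runx1 and chr17:38298218-38298467 on the minus strand for Prl.
Avil: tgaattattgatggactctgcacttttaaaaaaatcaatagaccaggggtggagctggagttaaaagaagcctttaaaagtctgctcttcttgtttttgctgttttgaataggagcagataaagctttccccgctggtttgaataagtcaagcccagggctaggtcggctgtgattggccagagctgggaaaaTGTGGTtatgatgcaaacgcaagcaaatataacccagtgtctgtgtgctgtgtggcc
Runx1: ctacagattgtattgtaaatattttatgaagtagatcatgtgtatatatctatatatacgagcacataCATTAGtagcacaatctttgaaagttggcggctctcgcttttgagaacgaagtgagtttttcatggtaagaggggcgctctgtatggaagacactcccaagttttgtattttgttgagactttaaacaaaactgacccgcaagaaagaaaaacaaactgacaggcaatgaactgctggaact
Prl: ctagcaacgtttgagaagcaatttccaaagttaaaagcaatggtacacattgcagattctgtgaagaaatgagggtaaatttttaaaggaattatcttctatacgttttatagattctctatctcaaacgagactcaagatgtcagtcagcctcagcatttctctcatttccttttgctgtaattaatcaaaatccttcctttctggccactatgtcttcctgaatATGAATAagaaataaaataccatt
The capitals in Avil are the RUNX letters TGTGGT, those in Runx1 the Islet letters CTAATG read on the other strand, and those in Prl the Pit-1 letters ATGNATA. Each motif was searched on both strands. TGTGGT occurred in 14.1% of 27457 promoter windows of the same length, CTAATG in 7.32% and ATGNATA in 8.49%. The letters TAATCC of the Pitx factors occurred in 6.33%. The windows of Prph, P2rx3, Scn10a, Pou4f2, Sncg, Isl1, Tlx3, Tshb, Cga and Lhb held none of these motifs. Of the 38 sensory and neuronal genes higher on the upper side that the promoter table holds, 4 held TGTGGT, 3 held CTAATG and 2 held ATGNATA and 1 held TAATCC. Of the 23 pituitary genes it holds, 2 carried each of the first 3 motifs and 1 carried TAATCC. These shares are near those of all promoters, and a match is a description of the letters, not a binding site.

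Some arrays stood apart for other tissue as well. Male TCDD 1 had the highest level among the upper arrays for 680 of the 700 higher genes other than Avil, and was the array with Avp at -1.86, against -6.24 to -5.58 on the other 11. Male control 2 and female control 2, both on the upper side, carried liver transcripts: Alb stood at 0.08 and 0.73 there, at -3.31 on female TCDD 3 and at -8.72 to -5.44 on the other 9. Male control 1, on the lower side, carried choroid plexus transcripts, with Ttr at 6.43 against -3.20 to 1.71 elsewhere. Between 75.1% and 78.4% of the 42877 spots that are no controls were well above background on each array, and none was saturated.

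Across 19351 genes, those that were higher with the ganglion stood far out from the rest, and those that were lower hardly did. A difference is the fitted upper minus lower mean with treatment in the fit, on the log2 scale, with its standard error. A gene is called higher or lower here where its 6 upper and 6 lower arrays did not overlap and the difference reached 1. By that rule 701 genes (3.62%) were higher, Avil among them, and 33 (0.171%) were lower. The median difference of all genes was -0.13, with quartiles of -0.29 and 0.07, and 68.2% of genes lay below 0. All differences below are to be read against that median. Of the 701 higher genes 108 reached a difference of 3. Their probes were well above background on all 6 lower arrays for 547 genes and on none of these arrays for 83. Probes were kept if well above background on at least 3 arrays. Those 83 were thus kept through the upper arrays alone, and their being higher is no support.

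**Figure D1:**
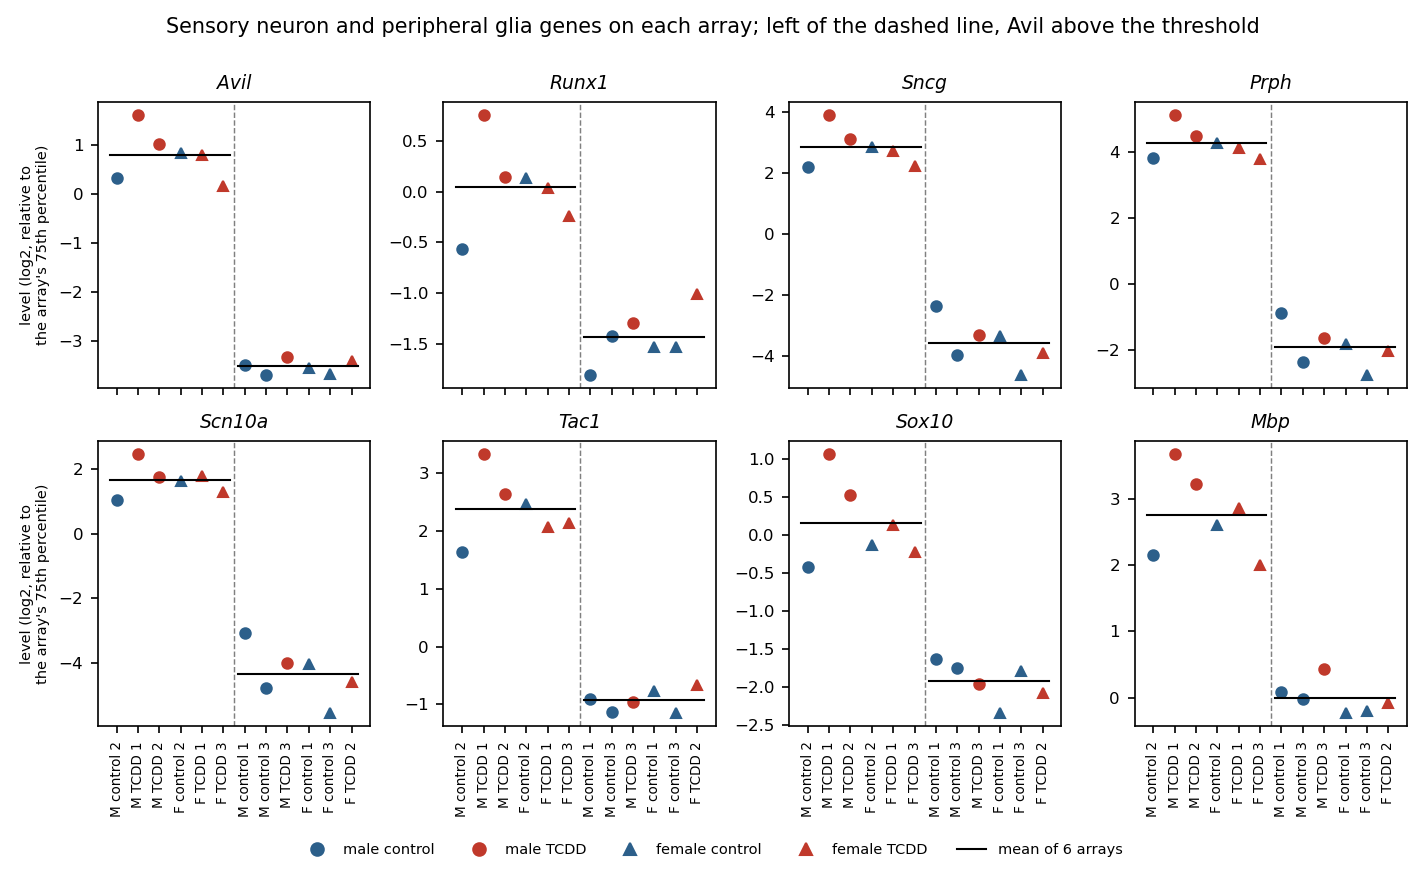
Level of 8 sensory neuron and glia genes on each array, on the log2 scale relative to the array's 75th percentile, with circles for males, triangles for females, red for TCDD and blue for control, and bars for the mean of 6 arrays. The upper arrays stand left of the dashed line and lie above all lower arrays for each gene, with male TCDD 1 the highest.

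The largest differences belonged to genes of sensory and peripheral neurons. Sncg, the synuclein of peripheral neurons, ran from 2.20 to 3.90 on the upper arrays with a median of 2.79, and from -4.62 to -2.36 on the lower arrays with a median of -3.64. Its difference was 6.36 ± 0.39 (SE, n = 6 and 6). Prph, which encodes the neurofilament protein peripherin of peripheral neurons, ran from 3.78 to 5.11 and from -2.76 to -0.89, a difference of 6.11 ± 0.32. The upper and lower arrays were separated for both genes by more than 4 units. The probe of Sncg lies at chr16:10026224-10026283 and that of Prph at chr7:137839568-137839627 on rn4, the build of the array files.

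Among the transcription factors, the Brn3, Islet and Tlx genes were higher on the upper side and the early neurogenic factors were not. Of the 25 measured factors of the sensory list, 9 were higher and none lower, against 3.62% and 0.171% of all genes. In a list this short the lack of lower calls says little. The list median was 0.51, or 0.25 without male TCDD 1 and -0.09 under the filter that asks for every array. Of the 25, 2 were well above background on no lower array and were kept through the upper arrays alone. Pou4f2, a Brn3 factor, ran from -1.08 to 0.32 on the upper arrays and from -7.77 to -5.41 on the lower ones, a fitted difference of 6.40 ± 0.40. It was well above background on 1 lower array, so the size of that difference rests on values near background. Pou4f1, the Brn3a gene of sensory neurons, averaged -3.17 on the upper arrays and -8.01 on the lower ones, where no array had it well above background, so it was at least 10.6-fold higher. Such a bound sets the upper mean against the lowest signal that was well above background on each lower array. Prdm12, a factor of pain-sensing neurons, averaged -3.35 and -8.42 and was at least 9.33-fold higher.

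Isl1 ran from -0.45 to 0.95 on the upper arrays and from -3.10 to -1.93 on the lower ones, a difference of 2.59 ± 0.27. Its relative Isl2 differed by 5.06 ± 0.30. Tlx3 differed by 3.57 ± 0.21 and Drgx, which acts with Tlx3 in pain circuits, by 4.77 ± 0.28. Tlx2, outside the list, averaged -1.93 and -7.99 and was at least 25.03-fold higher.

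Runx1 was the smaller of the markers. It stood at -0.57 on male control 2, 0.76 on male TCDD 1, 0.14 on male TCDD 2, 0.14 on female control 2, 0.03 on female TCDD 1 and -0.24 on female TCDD 3. The lower arrays ran from -1.81 on male control 1 to -1.01 on female TCDD 2. The sides did not overlap, and the difference was 1.34 ± 0.17, or 2.54-fold, by a probe at chr11:32623591-32623650 on rn4. Runx3, the Runx factor of muscle-sensing neurons, overlapped between the sides, with a difference of -0.55 ± 0.21. Neurog1 and Neurog2, which start the making of sensory neurons, also overlapped, at 0.61 ± 0.76 and -0.91 ± 0.39. Neurog1 stood at -1.65 on male TCDD 1 and at -7.82 to -5.11 on the other 11 arrays.

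Receptors for neurotrophic factors were higher for 5 of 10 measured genes and lower for none, against 3.62% and 0.171% of all genes. In a list this short the lack of lower calls says little. The median was 1.31 and ran from 0.65 to 1.39 over the alternative settings and left-out arrays. Among the higher genes were Ret at 3.20 ± 0.24 and the shared neurotrophin receptor Ngfr at 3.12 ± 0.26. The artemin receptor Gfra3 gave 2.78 ± 0.25 and Ntrk2, which encodes TrkB, 1.99 ± 0.19. Gfra3 ran from -1.10 to 0.73 on the upper arrays and from -3.63 to -2.83 on the lower ones. Ntrk3, which encodes TrkC of muscle-sensing neurons, overlapped between the sides, at 0.52 to 1.53 and 0.16 to 1.01. Its difference was 0.49 ± 0.18.

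Ion channels of sensory neurons gave 10 higher members of 19 measured, against 3.62% of all genes, with a median of 2.19. Of the 19, 3 were well above background on no lower array and were kept through the upper arrays alone. The median ran from 0.84 to 2.33 over the alternative settings and left-out arrays. P2rx3, the ATP receptor of pain fibres, had a median of 3.32 on the upper arrays, where 2.71 was the lowest value, and of -2.87 on the lower ones, where -1.69 was the highest, a difference of 6.14 ± 0.37. Scn10a, the sodium channel Nav1.8, ran from 1.05 to 2.49 and from -5.57 to -3.09, a difference of 5.92 ± 0.38. Scn11a differed by 3.66 ± 0.23, Scn9a by 2.30 ± 0.23 and the heat and capsaicin receptor Trpv1 by 3.46 ± 0.31. The cold receptor Trpm8 averaged -3.86 and -7.63 and was at least 6.56-fold higher. The acid-sensing channel Asic3 averaged -3.36 and -8.25 and was at least 9.27-fold higher. The touch channel Piezo2 overlapped between the sides, with a difference of 0.43 ± 0.15.

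Peptides of sensory neurons were higher for 5 of 9 measured genes, against 3.62% of all genes, with a median of 2.29. That median ran from 1.18 to 2.37 over the alternative settings and left-out arrays. Tac1, the substance P gene, stood at 1.63 on male control 2, 3.33 on male TCDD 1, 2.63 on male TCDD 2, 2.47 on female control 2, 2.07 on female TCDD 1 and 2.13 on female TCDD 3, against -1.16 to -0.66 on the lower arrays. It differed by 3.19 ± 0.23. Calca, which encodes calcitonin gene-related peptide, ran from -0.40 to 0.98 and from -4.96 to -3.96, a difference of 4.56 ± 0.24. Adcyap1 differed by 4.73 ± 0.26, Gal by 3.28 ± 0.43 and Calcb by 2.29 ± 0.20. Npy and Vip, peptides also found in autonomic ganglia, differed by 0.03 ± 0.24 and 0.12 ± 0.39.

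Genes used by neurons in general were higher for 24 of 29 members apart from Avil, against 3.62% of all genes. The median was 2.24. Of the 29, 2 were well above background on no lower array and were kept through the upper arrays alone. Beside Sncg and Prph, the neurofilament gene Nefm differed by 4.69 ± 0.31. Kif5a, a kinesin motor of axons, averaged -2.34 and -7.52 and was at least 18.9-fold higher. Stmn2 and Gap43, which mark growing axons, differed by 3.24 ± 0.18 and 3.22 ± 0.21. Stmn2 ran from 4.35 to 5.41 on the upper arrays and from 1.15 to 1.74 on the lower ones, above the 75th percentile on both sides. Ncam1, an adhesion molecule of many cell types, differed by 0.31 ± 0.13.

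Glia of peripheral nerve came with the neurons. Of 18 measured genes 8 were higher and none lower, against 3.62% and 0.171% of all genes. In a list this short the lack of lower calls says little. All 18 differences were above 0, and the median was 1.07. Mbp, a myelin gene of Schwann cells, stood at 2.15 on male control 2, 3.68 on male TCDD 1, 3.23 on male TCDD 2, 2.60 on female control 2, 2.86 on female TCDD 1 and 2.00 on female TCDD 3. The lower arrays ran from -0.24 to 0.43, and the difference was 2.62 ± 0.25. The male TCDD arrays were the highest of the upper side for Mbp and for Sox10, the factor that maintains neural crest glia. Sox10 differed by 2.00 ± 0.24. Fabp7, a gene of satellite glia, overlapped between the sides at 1.71 ± 0.57.

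Markers of other neurons mostly overlapped between the sides. Of 11 measured autonomic genes 1 was higher, where 3.62% of all genes were called higher and 0.171% lower. It was the nicotinic receptor Chrna3, which averaged -4.61 and -6.95 and was at least 3.79-fold higher. Th, the first enzyme of catecholamine synthesis, did not overlap but differed by only 0.66 ± 0.15, and Dbh, the enzyme that makes noradrenaline, by 0.01 ± 0.54. The autonomic factors Phox2a, Hand1 and Hand2 were on the array and did not pass the filter on dim probes. Of the sensory lists, 4 channels, 1 factor and 1 peptide did not pass it either, the channel Trpa1 and the receptor Mrgprd among them. Failing the filter thus does not set the autonomic list apart. Of 15 measured forebrain genes none was called, with a median of -0.05. Their mean was highest on female TCDD 3, an upper array, at -2.80, against -4.38 to -3.25 on the other 11. Of 6 measured posterior lobe genes none was called, and 1 was higher without overlap, against 7.96% of all genes. In lists this short, the lack of calls says little. Hox genes mark the trunk and the hindmost head, and of 39 listed only 7 could be measured. Hoxd1, also known from pain-sensing neurons, averaged -2.66 and -8.18 and was at least 15.1-fold higher. The other 6 ran from -1.07 to 0.05 and overlapped between the sides.

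**Figure D2:**
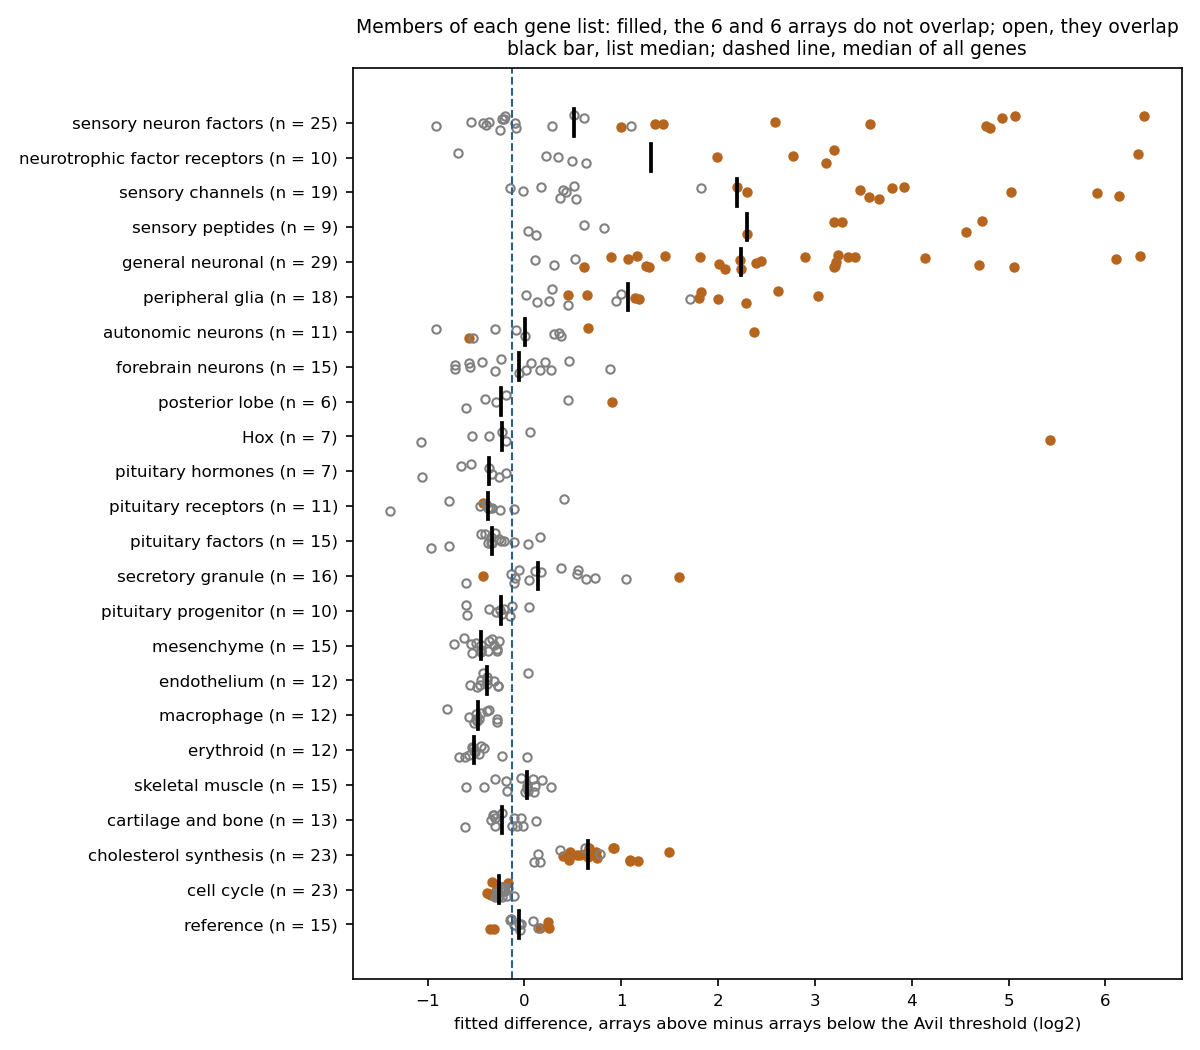
Fitted difference of each list member, upper minus lower arrays on the log2 scale, filled where the 6 and 6 arrays do not overlap and open where they do, with black bars for list medians and a dashed line for the median of all genes at -0.13. Sensory, neuronal and glial lists lie to the right, cholesterol synthesis lies at 0.66, and the pituitary lists lie among the blood, vessel and mesenchyme lists to the left.

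No gene of the pituitary hormone, receptor or factor lists was called higher or lower, most of their differences lay below 0, and the sides overlapped for all but Nr3c1. That gene, which encodes the glucocorticoid receptor, differed by -0.43 ± 0.15 without overlap. Over all genes 3.62% were called higher and 0.171% lower, and 7.67% were lower without overlap. In lists this short, the lack of lower calls says little. In bulk tissue fewer cells of a type and less RNA per cell cannot be told apart. All 7 hormone genes differed by less than 0, with a median of -0.37. Plain differences of means gave a hormone median of -0.13 in controls and of -0.51 in exposed arrays. The 11 receptor genes had a median of -0.38 and the 15 transcription factors one of -0.34. The fitted medians of these lists are each below that of all genes, -0.13, while the plain hormone median in controls alone is not. Over the alternative settings and left-out arrays the fitted hormone median ran from -0.51 to -0.24, a range that leaves out the plain value in controls.

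Pomc, the ACTH precursor, ran from 5.73 to 6.51 on the upper arrays with a median of 6.26, and from 6.39 to 6.99 on 5 lower arrays with a median of 6.58, since its spot on female control 3 was an outlier and was left out. The difference was -0.37 ± 0.13 and the sides overlapped. Tshb, the thyrotropin subunit, stood at 3.24 on male TCDD 1 and at 4.22 to 5.14 on the other upper arrays, against 4.26 to 5.25 on the lower ones. Its difference was -0.20 ± 0.21, smaller than its own error. Cga, the subunit shared by thyrotropin and the gonadotropins, differed by -0.26 ± 0.21 and Lhb by -0.33 ± 0.26. Prl differed by -0.55 ± 0.29, with -1.74 to -0.34 on the upper arrays and -1.54 to -0.25 on the lower ones.

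Gh1, growth hormone, had the widest spread. Among controls it stood at -2.45 on male control 2 and -2.10 on female control 2, the upper arrays, and at 0.17, -0.38, -0.61 and -0.46 on the 4 lower arrays. Among exposed arrays the upper side ran from -4.40 to -1.78 and the lower arrays stood at -2.50 and -3.99. The sides were thus apart in controls and overlapped in exposed fetuses, with an overall difference of -1.06 ± 0.50. The probe lies at chr10:95692241-95692300 on rn4. Ghrhr, the receptor that drives growth hormone cells, showed the same arrangement, at -1.39 ± 0.51. Both controls of the upper side are the arrays with liver transcripts, whose part in this difference was not tested. Without male control 1, male control 2, female control 2 and male TCDD 1 the difference was 0.16 for Gh1 and -0.30 for Ghrhr. Ghrhr ran from -6.23 to -5.92 on the upper controls and from -9.07 to -6.30 on the upper exposed arrays. The lowest signal well above background was -6.88 to -6.31 on the upper arrays. The size of the Ghrhr difference thus rests on values near background.

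**Figure D3:**
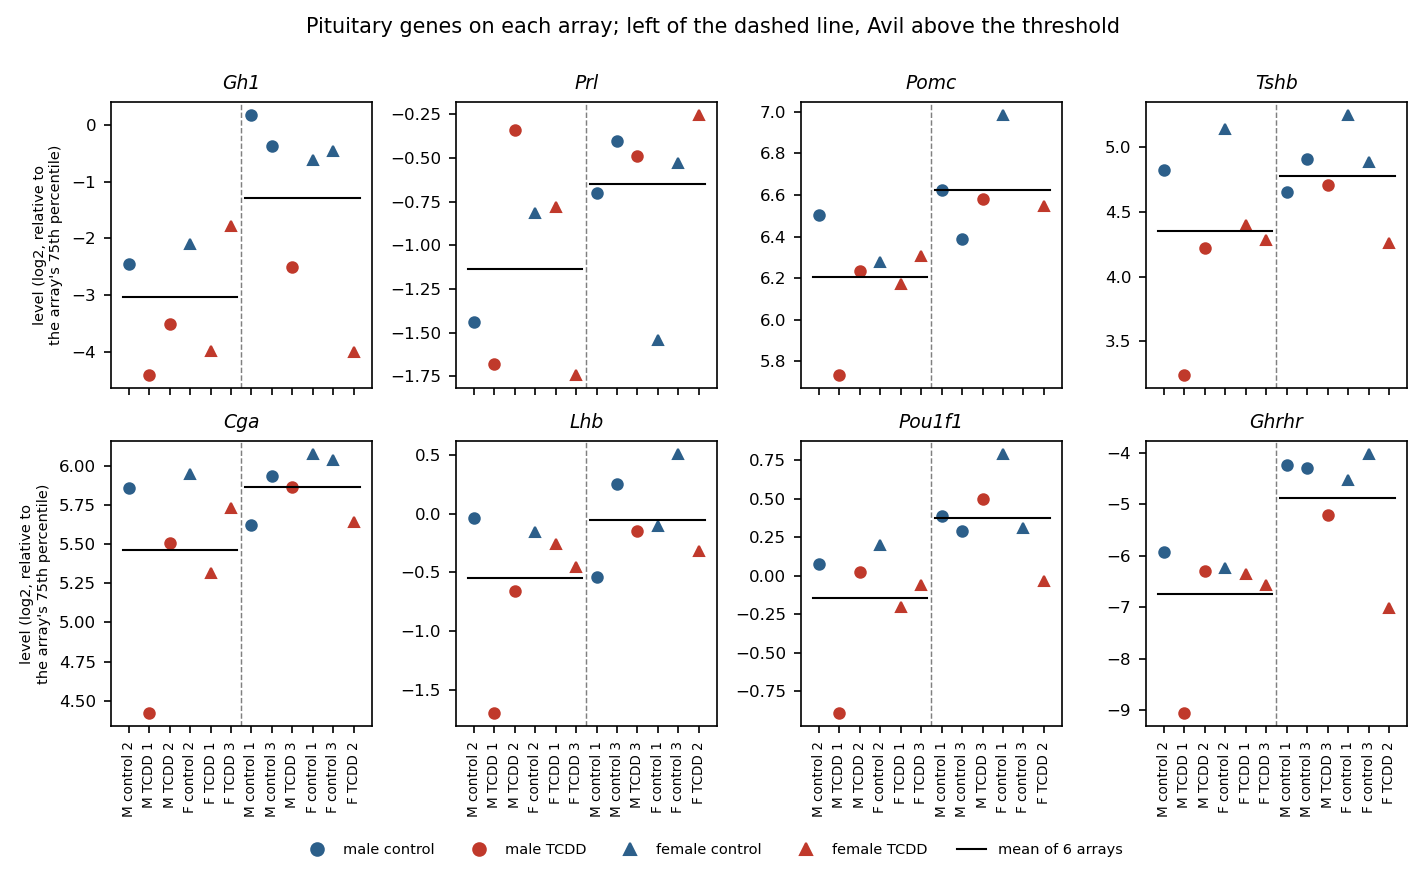
Level of 8 pituitary genes on each array, on the log2 scale relative to the array's 75th percentile, with the symbols and bars of the plot of sensory levels. The sides overlap for every gene shown, and the 2 upper controls of Gh1 lie below the 4 lower controls. Male TCDD 1 is the lowest array for Gh1, Pomc, Tshb, Cga, Lhb, Pou1f1 and Ghrhr.

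Factors of the pituitary lineage gave values of the same kind. Pou1f1 differed by -0.41 ± 0.17, Lhx3 by -0.30 ± 0.09 and Neurod4 by -0.97 ± 0.27, all with overlap. Neurod4 ran from -7.35 to -5.96 on the upper arrays, values near background. Genes of the secretory granule, which endocrine cells and neurons share, had a median of 0.14 over 16 members, with 1 higher, against 3.62% of all genes. The gene called was Cadps, which primes dense-core vesicles, at 1.60 ± 0.22. A single call in a list this short says little about the list. The granule genes Chga and Chgb differed by 0.04 ± 0.20 and -0.05 ± 0.14. Pituitary progenitor genes had a median of -0.24 over 10 members, none of them called.

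Several lists of other tissues had medians as low as those of the pituitary lists, and the differences between lists were not tested. The medians were -0.45 for 15 mesenchyme genes, -0.39 for 12 endothelial genes, -0.48 for 12 macrophage genes and -0.52 for 12 erythroid genes. None was called in any of these lists, and of all genes 0.171% were called lower. Cx3cr1, a macrophage receptor, gave -0.80 ± 0.21 and the red cell gene Ahsp -0.68 ± 0.23. Skeletal muscle stood at 0.03 over 15 genes and cartilage and bone at -0.24 over 13.

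Outside tissue markers, 4 of 23 measured genes of cholesterol synthesis were called higher and none of 23 cell cycle genes was called. Of all genes 3.62% were called higher and 0.171% lower, so the lack of lower calls in a list this short says little. All 23 cholesterol genes lay above 0 with a median of 0.66, and 17 of them did not overlap between the sides, against 7.96% of all genes that were higher without overlap. Hmgcs1, which makes the precursor of mevalonate, ran from 3.55 to 4.45 on the upper arrays and from 2.13 to 2.64 on the lower ones. Its difference was 1.49 ± 0.15, and those of Fdps and Idi1 were 1.09 ± 0.16 each. These 3 were among the 4 called members. The list mean ran from -0.08 to 0.60 on the upper and from -0.65 to -0.45 on the lower arrays, with male TCDD 1 the highest. The mean of the general neuronal list ran from 0.41 to 1.64 and from -1.93 to -1.42 over the same arrays, and that of peripheral glia from -2.26 to -0.93 and from -3.26 to -2.96; their part in the difference was not tested.

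All 23 measured cell cycle genes lay below 0, with a median of -0.27 and a range of -0.39 to -0.11. Of these 8 were lower without overlap, against 7.67% of all genes, and none reached a difference of -1. Cdc6, which licenses replication, gave -0.39 ± 0.09 and Mcm2, a replicative helicase subunit, -0.37 ± 0.09. The 15 reference genes had a median of -0.06.

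Few named genes were lower by the full rule. Of the 33 only 9 had a gene symbol and 3 had a mean level above -4 on the lower arrays, and 15 were not well above background on any upper array. The symbols were Htr2c, Pde6a, Vav1, Akr1c3, Or1f20d, Nipal4, Pax2, Lcn10 and Ces1f. Htr2c, a serotonin receptor of the choroid plexus, stood at -2.52 on male control 1, the array with choroid plexus transcripts, and at -5.58 to -4.82 on the other lower arrays. It ran from -6.46 to -5.89 on the upper ones. The count of 33 was 169 without the arrays with liver transcripts. It was 50 without male control 3, 54 without female TCDD 3, 65 without female control 2, 66 without male TCDD 3, 75 without male TCDD 2, 83 without male control 2 and 95 without female control 3.

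The amount of ganglion transcript also varied within the upper side. The mean of the 29 general neuronal genes was 1.64 on male TCDD 1, 1.09 on male TCDD 2, 0.88 on female control 2, 0.82 on female TCDD 1, 0.45 on female TCDD 3 and 0.41 on male control 2. Of the 700 higher genes other than Avil, 402 were lowest on male control 2 and 266 on female TCDD 3 among the upper arrays. On the lower side the same mean ran from -1.93 on female control 3 to -1.42 on female control 1. Of the 700 genes 300 had their highest lower array in female control 1. For Sncg, Prph, P2rx3 and Scn10a that array was male control 1, and the lowest was female control 3.

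Males and females come from separate arrays, and in each sex 2 of the 3 upper and 1 of the 3 lower arrays were exposed. The difference was therefore taken within each sex with treatment in the fit. Across all genes the Pearson correlation of males with females was 0.81 and the Spearman correlation 0.65, which describes genes and not independent replicates. A difference of 1 was reached by 904 genes in males and 791 in females, and 690 reached it in both, which is 76.3% of the male list and 87.2% of the female list. Prph differed by 5.94 in males and 6.27 in females, and Runx1 by 1.40 and 1.29. Gh1 differed by -1.90 in males and -0.22 in females. Of the 701 higher genes 580 reached 1 both in controls and in exposed fetuses.

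**Figure D4:**
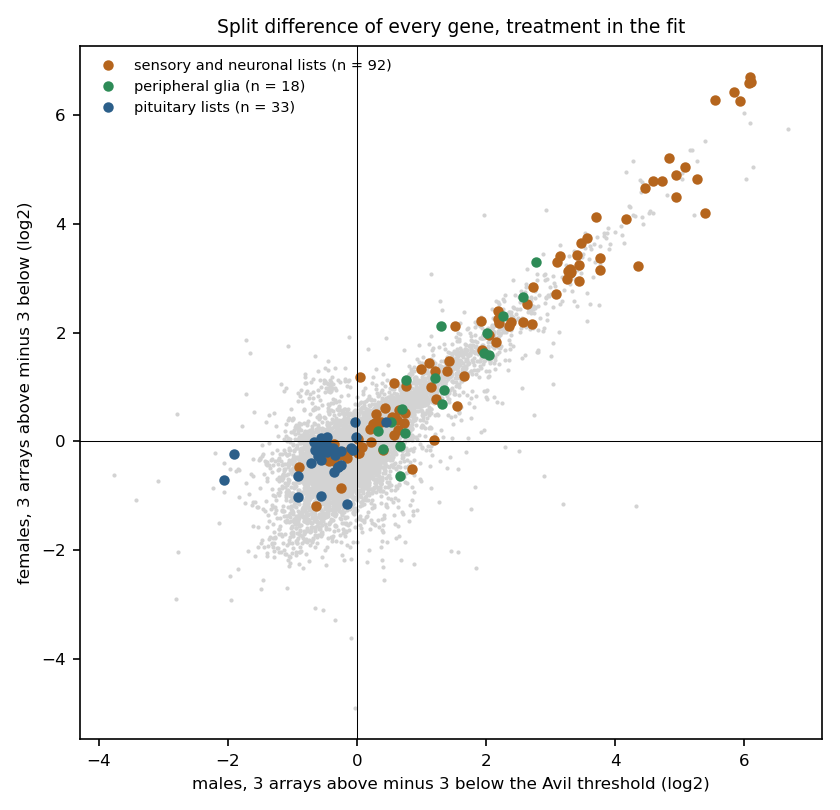
Difference between upper and lower arrays for every gene in males (horizontal axis, 3 arrays against 3) and in females (vertical axis, 3 against 3), both on the log2 scale with treatment in the fit, with sensory and neuronal lists in brown, peripheral glia in green and pituitary lists in blue. Sensory and neuronal genes lie along the diagonal up to above 6. Gh1 and Ghrhr lie at -1.90 and -2.07 in males and at -0.22 and -0.70 in females.

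The 12 arrays lay on 3 slides of 4, and each slide held 2 upper and 2 lower arrays. Slide 1 had 1 exposed array, on the upper side, and slide 3 had 1 control, on the lower side, so the difference was again taken with treatment in the fit and rests on 3 controls on slide 1 and 3 exposed arrays on slide 3. Of the 700 higher genes other than Avil, 473 reached a difference of 1 on every slide. All 700 were above 0 on every slide, which the rule of no overlap had fixed in advance. Prph differed by 5.43, 6.11 and 5.98 on slides 1, 2 and 3. The hormone list median was 0.04, -0.30 and -0.08. Gh1 differed by -2.35, -1.24 and 1.11, so its direction was not the same on the 3 slides. Of the 33 lower genes none reached -1 on every slide.

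The sides were compared with the labels and with array quality by exact tests, 4 of each kind. TCDD arrays made up 4 of the 6 upper arrays, with a two-sided p of 0.567 by Fisher's exact test. Males and females gave 3 upper arrays each and the slides 2 each, both with an exact p of 1. Replicate numbers 1, 2 and 3 gave 2, 3 and 1 upper arrays, with an exact p of 0.766. All 4 were 1 after adjustment. A p of this size does not show that the sides were balanced. The share of spots well above background was 76.6% ± 1.14 on the upper and 77.5% ± 0.787 on the lower arrays (SD, n = 6 each), and the two-sided exact permutation p over 924 arrangements was 0.117, or 0.234 adjusted over 4 quality measures. The log2 75th percentile, by which each level is scaled, was 10.10 ± 0.138 and 9.96 ± 0.125 (permutation p = 0.106, adjusted 0.234). The variation of replicate spots and the background level gave permutation p-values of 0.368 and 0.740.

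The exposure was tested with the side of the split in the fit, in limma over all 19351 genes with Benjamini-Hochberg adjustment. Of these 9 genes (0.0465%) rose and none fell at an adjusted p of 0.05, and 1082 had an unadjusted p under 0.05. Without the side in the fit 4 passed, Ahrr, Cyp1a1, Ihh and Nqo1. Ahrr, the repressor induced by the aryl hydrocarbon receptor, rose by 5.80 ± 0.25 (adjusted p = 1.51e-05). The exposed arrays ran from -0.23 to 0.67 and the controls from -6.27 to -4.98. No control had Cyp1a1, the classic target of the receptor, well above background. It averaged -1.88 in exposed and -7.49 in control arrays and was at least 25.04-fold higher (adjusted p = 2.36e-05).

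Ihh, which encodes Indian hedgehog, rose by 2.17 ± 0.18 and the quinone reductase gene Nqo1 by 1.35 ± 0.12 (both adjusted p = 0.00246). The other 5 passed only with the side in the fit. The retinaldehyde dehydrogenase gene Aldh1a1 rose by 1.13 ± 0.13, Slc27a2, a fatty acid transporter, by 1.31 ± 0.16, and Cyp1b1, another target of the receptor, by 0.92 ± 0.11 (adjusted p = 0.0267 each). Artn, which encodes the ligand of Gfra3, rose by 0.73 ± 0.09 (adjusted p = 0.0267), and the myosin gene Myh7 by 1.48 ± 0.18 (adjusted p = 0.0295). Artn was higher in exposed arrays by 0.82 on the upper side and 0.64 on the lower side.

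**Figure D5:**
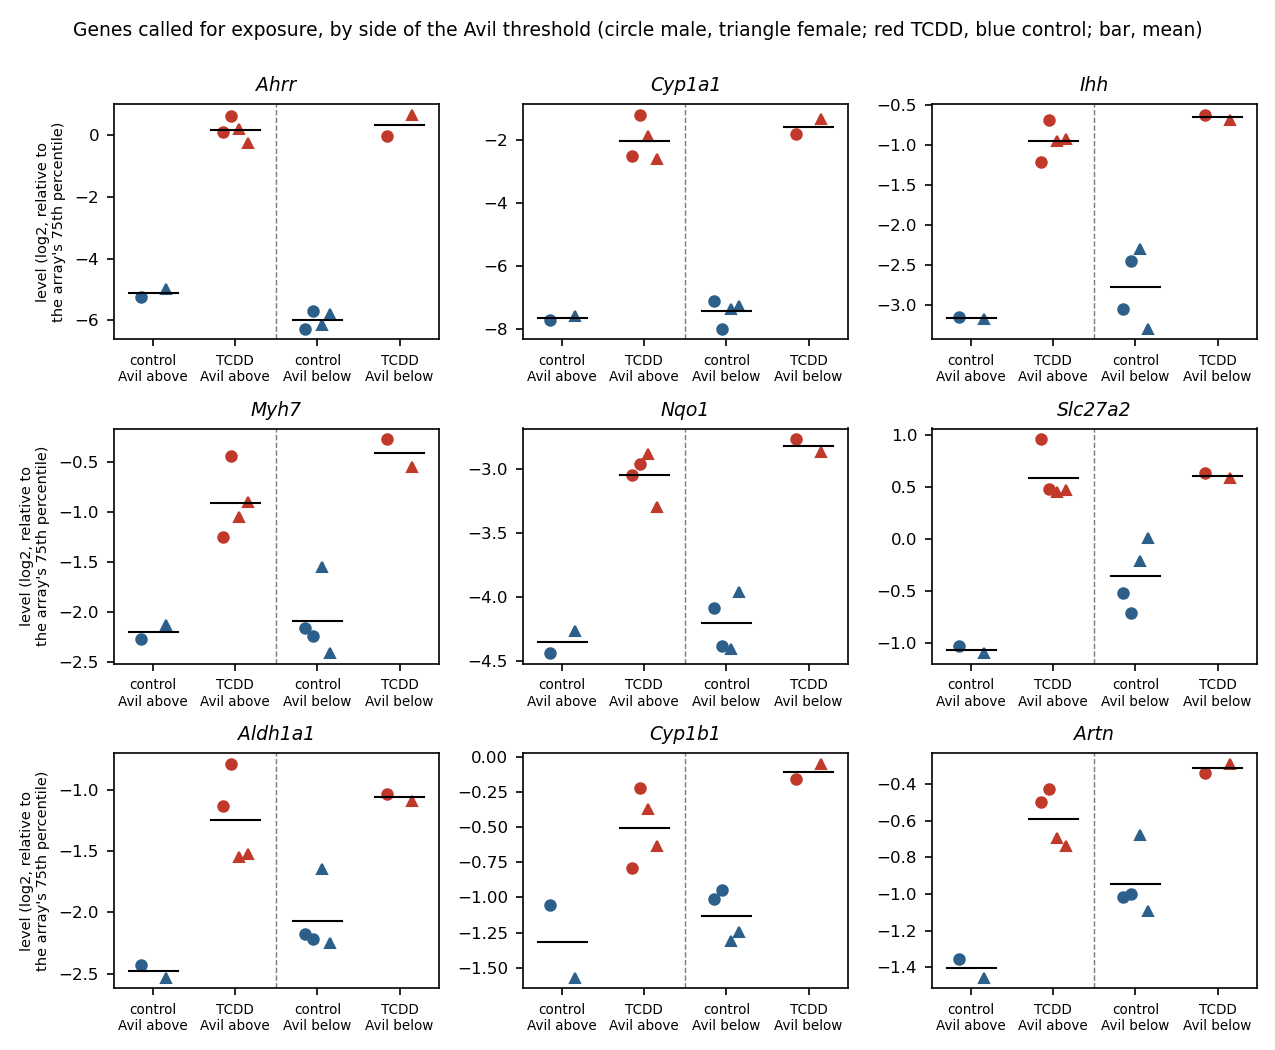
Levels of the 9 genes that rose with exposure, on the log2 scale relative to the array's 75th percentile, by treatment and by side of the Avil threshold, with circles for males, triangles for females and bars for means. The exposed arrays lie above the controls on both sides of the split, by 5.30 and 6.30 for Ahrr and by 1.31 and 1.39 for Nqo1.

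The count of 9 rested on single arrays. No gene passed without male control 1, male control 2, female control 2 and male TCDD 1, where 508 had an unadjusted p under 0.05 and the adjusted p of Ahrr was 0.0576, and 2 passed without the arrays with liver transcripts. Without single arrays 4 to 11 passed, with 4 without male control 1, male control 3, female control 2, female TCDD 1 or female TCDD 2 and 5 without male control 2. With the slide as a block 32 passed, 5 of the 9 among them. Within slides 1, 2 and 3 the plain exposed minus control difference of means was 5.84, 5.87 and 6.01 for Ahrr, 0.21, 1.25 and 0.90 for Cyp1b1 and 0.63, 0.69 and 0.52 for Artn, with 1 exposed array on the first and 1 control on the last. No sensory, glial or pituitary list member passed, where 0.0465% of all genes did, so this absence says little about these lists. The median exposure effect was 0.19 for the general neuronal list, 0.36 for peripheral glia and -0.47 for the hormones. For Gh1 it was -2.03 ± 0.54 (adjusted p = 0.619) and for Tshb -0.69 ± 0.21 (adjusted p = 0.717).

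Whether exposure or sex changed the difference between the sides was tested by interaction terms in separate limma fits. Each held additive terms for exposure, sex and side besides its interaction. No gene passed for exposure and side, with a smallest adjusted p of 0.338 and 475 unadjusted p-values under 0.05. The 5 smallest p-values were those of Fgb, C3, Serpina1, Saa4 and Hdc. The first 4 are genes that liver expresses, and the arrays with liver transcripts are the 2 upper controls. Fgb stood at -2.12 and -1.59 on these and at -8.80 to -5.96 on the other 10, and the part of the liver transcripts was not tested. Without female TCDD 3 the count was 3. No gene passed for sex and side either, with a smallest adjusted p of 1.00 and 391 unadjusted p-values under 0.05.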

How the data were processed

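Each array measured total RNA of fetal pituitary by 1 colour, with 60-base probes. Per the file headers, the scanner intensity was background-subtracted and detrended with Feature Extraction 10.7.1.1 and placed on rn4; the submitters' processing notes name Agilent Feature Extraction 9.5.1.1. The authors also deposited a table of intensity values with equal distributions on all arrays, used as an alternative.

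From these intensities, outlier spots were dropped, log2 signal was taken minus each array's 75th percentile, spots of a probe were averaged, and probes were kept if well above background on at least 3 arrays with at least 10 values. The brightest kept probe stood for a gene. Of 30367 probes 18006 were named by accession, 2654 by symbol and 559 by older symbol in RefSeq's GRCr8 table, and 9148 kept the name in the file; 22431 probes of 19351 genes were kept. Fits used limma 3.58.1 in R 4.3.3 with an intensity trend, and SEs are the fit's own; exact tests used scipy 1.17.1. The fits were tested on simulated data.

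The members, the 25 gene lists and the tests were chosen with earlier results of these data known, and 2 further lists (liver, choroid plexus) and the alternatives leaving out several arrays after seeing the levels. Named are the 12 genes of largest difference in each direction, 4 per list, a fixed set of marker genes and the genes passing for exposure or of smallest interaction p; other members of the lists were named after their values were seen. Alternatives changed scaling, background, filter, probe rule, covariates, blocks and arrays. Precision is limited by the number of arrays. Differences within each sex and slide had treatment in a least-squares fit, a choice made after seeing the data. A few genes that the rule names are not reported here.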

Additional observations from a re-analysis of the deposited data

Results flagged for a closer look

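Among 108 sets of 6 arrays checked for an array far from the other 5, 11 had one, and chance alone flags about 1 in 20. Male TCDD 1 was the distant array of the upper side in 5 of them: its pituitary receptor mean was -4.22 against -3.54 to -3.44, its cholesterol synthesis mean 0.60 against -0.08 to 0.14, its Lhb level -1.70 against -0.66 to -0.04, its Pou1f1 level -0.90 against -0.20 to 0.20 and its Avp level -1.86 against -6.24 to -5.61. Female control 1 was the distant array of the lower side in 4: the posterior lobe mean was -2.999 against -3.56 to -3.37, the pituitary progenitor mean -0.35 against -0.77 to -0.63, the macrophage mean -0.70 against -0.34 to -0.14 and the Prl level -1.54 against -0.70 to -0.25. Male control 1 was distant in the choroid plexus mean, -0.0786 against -2.77 to -2.40, and in Syt2, -7.17 against -9.07 to -8.75, where no lower array was well above background. The causes were not tested.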

How the results depend on the processing

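The count of 701 higher genes was 282 with a limit of 2 and 414 with normexp background correction, and 639 to 799 without single arrays; under the other alternatives it stayed within 1.5 times. The count of 33 lower genes was 1 with a limit of 2, 12 in the authors' deposited table, 12 with quantile normalization, 0 with normexp, 4 under a filter asking for all 12 arrays above background, 169 without the liver arrays, 161 without the 4 arrays that stood apart, and 26 to 95 without single arrays. Called genes for exposure were 5 without an intensity trend, 4 without the side, 32 with the slide as a block, 2 without the liver arrays, 0 without the 4 arrays and 4 to 11 without single arrays. The exposure interaction gave 3 genes without a filter, 2 with normexp and 0 to 3 without single arrays, and could not be fitted without the liver arrays or the 4 arrays; the sex interaction gave 0 throughout. With replicate number as a block the counts were 691 higher and 47 lower, 6 for exposure and 0 for both interactions. Same-numbered samples shared only a number: their deviations correlated between the sexes by 0.13, 0.75 and 0.35 in controls and by 0.65, -0.09 and -0.39 in exposed arrays. The median of all genes ran from -0.15 with median scaling to -0.06 with normexp. The sensory factor median was 0.25 without male TCDD 1 and -0.09 under the filter that asks for every array. Of the alternative values for single genes 122 moved by more than the spread between arrays and 9889 did not. Dim probes limit the depth: 83 of the higher genes have only a bound on the lower arrays. The causes of these changes were not tested.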

Other observations

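Most liver and choroid plexus transcripts were divided among the arrays in another way than Avil. Afp, the fetal liver protein, stood at 2.41 on male control 2, 3.01 on female control 2 and 0.57 on female TCDD 3, and at -5.40 to -0.77 on the other 9 arrays. Of the 6 upper arrays, male TCDD 1, male TCDD 2 and female TCDD 1 had Alb at -8.72 to -7.77, and the lower arrays had it at -8.59 to -5.44. The mean of 8 choroid plexus genes was -0.0786 on male control 1 and -2.77 to -2.18 on the other 11 arrays. Kcne2, a potassium channel subunit of that tissue, stood at 0.12 on that array and at -3.48 to -2.12 on the others. Sostdc1, on the same list, had a median of 0.05 on the upper and -1.61 on the lower arrays, which overlapped. Htr2c of that list, described above, was lower on the upper side without overlap.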
